A study of Mus musculus with 9 samples.

Results

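The comparison described here sets 3 arrays of marrow stem and progenitor cells taken at day 7 of leukemia against 3 arrays of the same sorted fraction from control mice, which makes 6 of the 9 arrays of the series. The arrays were chosen by their titles. The cells were CD45.1+ LKS+ cells sorted from bone marrow of C57BL/6 mice aged 8 weeks, in every group. The study asked how normal blood stem and progenitor cells change at successive stages of acute myeloid leukemia, and its other 3 arrays are from day 14. Controls carry no time label, so day 7 of leukemia and elapsed time cannot be told apart. How the leukemia was started, its genotype, and whether cells of several animals were pooled are not given in the sources used here. Of 18193 genes with a probe set of their own, 12652 gave enough signal to be tested, and shares below are of these unless said otherwise.

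LKS+ cells lack the surface markers of mature blood lineages and carry Kit and Sca-1, and the fraction holds blood stem cells together with multipotent progenitors. Most stem cells of a healthy adult marrow rest outside the cell cycle. Mitosis has its own set of kinases, motors and chromosome proteins, whose genes are read late in the cell cycle and are shut off in resting cells. Interferons are signalling proteins of the antiviral defence that act through STAT and IRF factors and switch on genes against viral RNA and proteins. Immediate early genes, such as those of the EGR, FOS and NR4A families, are read soon after a signal reaches the cell surface.

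Control replicates 1 to 3 are written C1, C2 and C3 below, and day 7 replicates 1 to 3 L1, L2 and L3. The arrays of both groups were alike in brightness, with a median intensity of 23.4 to 24.1 per array. Across genes, which are not independent replicates, the Pearson correlation was 0.994 to 0.996 between control arrays, 0.996 to 0.997 between day 7 arrays and 0.990 to 0.995 across the groups. A principal component with 50.4% of the variance of the 6 arrays put C1, C2 and C3 at -10.3, -5.45 and -17.4 and the day 7 arrays between 10.3 and 11.4, and the next component (18.2%) set C2 apart. Kit, the receptor that helps define the fraction, had intensities of 1690 to 1770 in control and 1400 to 1530 at day 7 (adjusted p = 0.14 with limma and Benjamini-Hochberg). Cd34, Flt3, Cd48, Slamf1 and Procr gave signal in all 6 arrays. Among markers of mature lineages, the B cell gene Ms4a1 lay below the signal threshold in all 6. Cd3e and Cd8a, of T cells, lay just above it in all 6, at 18 to 21.4 and 16.9 to 21.4. Also above it in all 6 were Cd4 at 29.3 to 35.5, Itgam at 46.4 to 71.0 and Csf1r at 494 to 1000. Sca-1 and Ly6g were not analysed here. Separate animals or sorts behind the replicates, labelled biological, are not stated, so p-values measure the spread between these samples. That spread was estimated from all 9 arrays, those of day 14 included, and the number of arrays limits the precision. In sorted bulk samples, fewer cells of a type and less RNA per cell cannot be told apart.

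By day 7, 423 genes (3.34% of those tested) differed from control at an adjusted p below 0.05, by limma with Benjamini-Hochberg adjustment. Of these, 280 (2.21%) were higher and 143 (1.13%) lower. The changes were mostly small: their median was 0.58 on the log2 scale among genes that rose and -0.47 among those that fell. Only 44 genes (0.348%) passed the test with a change of 2-fold or more, 32 of them higher and 12 lower. The median over all tested genes was 0.0132. All 423 called genes had their 3 day 7 arrays entirely above or entirely below the 3 controls. Regardless of the test, that split was seen in 1928 genes with day 7 higher (15.2%) and in 1429 with day 7 lower (11.3%). At an unadjusted p below 0.05 there were 2511 genes.

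**Figure D1:**
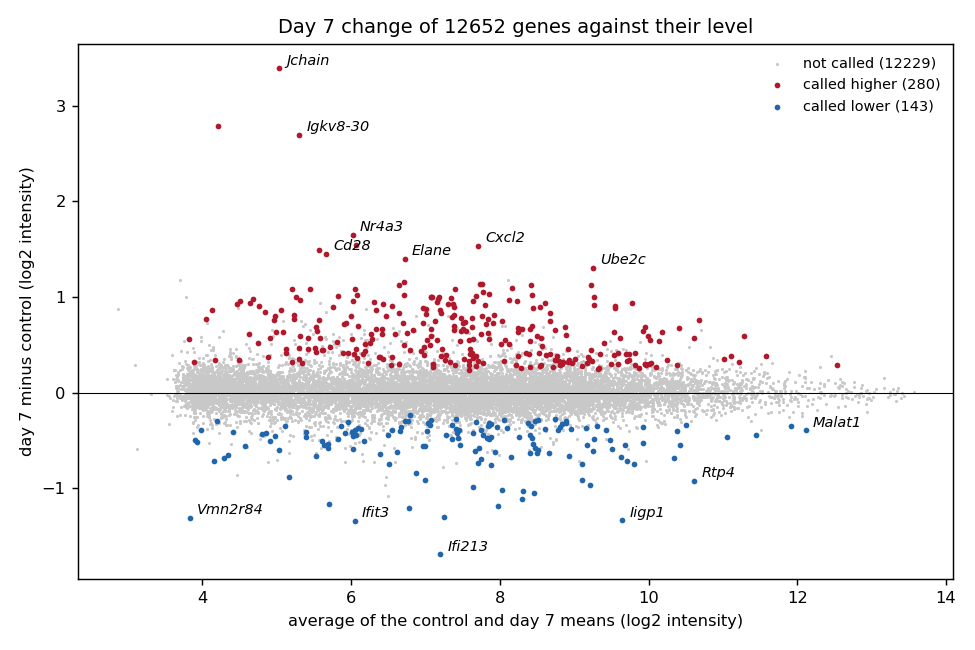
Each point is a gene, with the average of its control and day 7 means on the horizontal axis and the day 7 minus control difference on the vertical axis, both in log2 intensity; red and blue points are the 280 genes called higher and the 143 called lower. Jchain and Igkv8-30 are among the highest points, and Ifi213 has the largest fall.

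How many genes passed depended on single arrays. The count was 79 without C3, 84 without L2, 122 without L3, 137 without L1 and 187 without C1, whereas it was 555 without C2. Of the 162 called genes among the 211 named by rule, 110 higher and 52 lower, 44 kept their call with each of the 6 arrays left out and 118 lost it at least once. The losses were 71, 19 and 110 when C1, C2 or C3 was dropped, and 80, 104 and 89 when L1, L2 or L3 was. Over all genes, a total of 59, 47 higher and 12 lower, were called with each of the 6 arrays left out in turn. Among the 59 were the mitotic genes Ube2c, Birc5, Nusap1, Kifc1, Kif11, Aurka and Cenpa, the immediate early gene Nr4a3, the NOTCH target Hey1 and the antibody segment Igkv8-30. The 12 that were lower included Ifit1bl1, Irgm1, Irgm2, Trim34a and Samd9l, which belong to the interferon response.

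**Figure D2:**
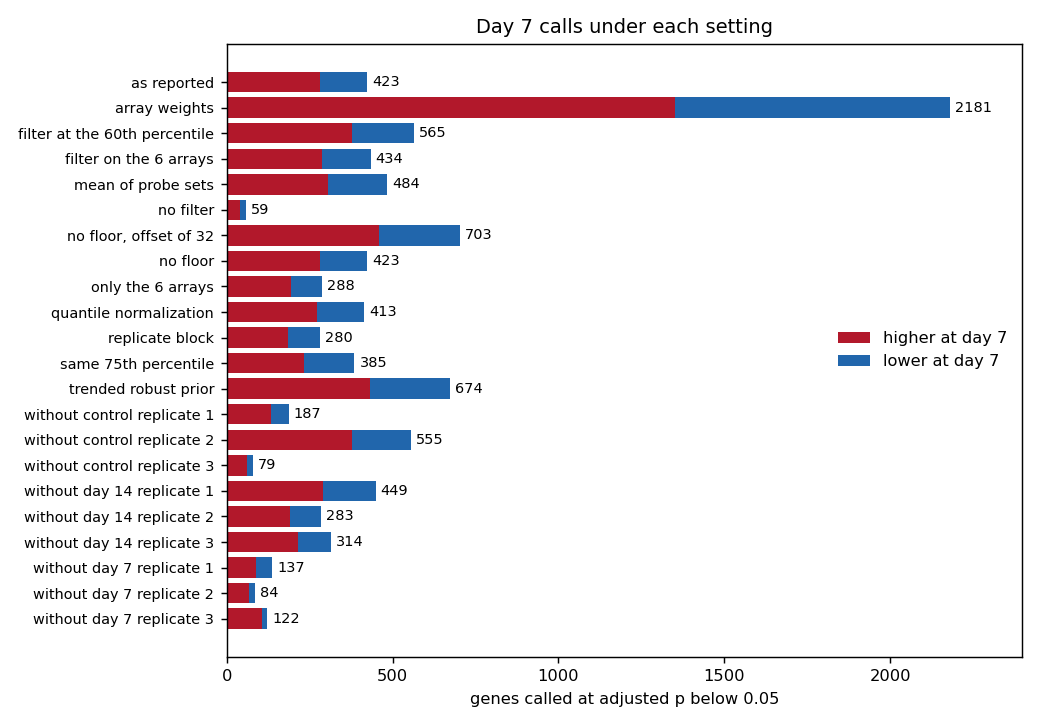
Bars give the number of genes called at an adjusted p below 0.05 as reported and under 21 other settings, split into genes higher (red) and lower (blue) at day 7, with the total beside each bar. The count ranges from 59 when dim genes are kept in to 2181 with estimated array weights, and genes higher at day 7 outnumber genes lower in each of them.

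The largest rises belonged to antibody genes, immediate early genes, a chemokine and mitotic genes. Jchain, which encodes the chain that joins antibody molecules, had intensities of 6.22, 21.4 and 5.36 in control and 89.1, 97.5 and 103 at day 7, a log2 change of 3.39 (SE 0.41, adjusted p = 0.0045). All day 7 arrays lay far above the controls, of which only 1 exceeded the signal threshold and 1 was raised to the floor of 5.812. The size of the change therefore rests on the handling of low values, and with an offset of 32 in place of the floor it was 1.6. Jchain passed the filter on dim genes, which asks for 3 arrays, only with arrays outside the control group. Without that filter it was not called (adjusted p = 0.064 with limma). Cxcl2, a chemokine that draws neutrophils, was at 204, 90.6 and 88 in control and at 333 to 355 at day 7 (2.90-fold, adjusted p = 0.016), with C1 above its group. Il1r2, a decoy receptor that soaks up interleukin-1, went from 25.1, 26.9 and 32.7 to 74.7, 64.4 and 102 (2.80-fold, adjusted p = 0.0045). Cd28, the costimulatory receptor of T cells, stood at 26.9 to 36.7 in control and at 74.0 to 97.8 at day 7 (2.74-fold, adjusted p = 0.0032), and its other probe set gave 1.22. Coq10b, needed for coenzyme Q to work in the respiratory chain and known as a gene of the CREB response, was at 129 to 152 against 291 to 353 (2.19-fold, adjusted p = 0.0014). In these 5, as in all called genes, the groups did not overlap. Of the 15 largest rises, 10 were called with each of the 6 arrays left out, under that same filter. Without C3, 10 of the 15 remained.

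The largest falls were of interferon-induced genes. Ifi213, a member of the interferon-induced family of DNA-binding proteins, was at 321, 148 and 331 in control and at 111, 59.0 and 71.6 at day 7, a fall by 1.69 on the log2 scale (SE 0.32, adjusted p = 0.022). C2 was the lowest control and still lay above each day 7 array. Vmn2r84, annotated as a vomeronasal receptor, was dim: it stood at 16.3, 21.2 and 30.7 in control and under the signal threshold at 8.35 to 9.38 at day 7, which bounds the fall at 1.54-fold or more. Of the 15 largest falls, 4 were called with each of the 6 arrays left out, under the same filter on dim genes (Vmn2r84, Ifit1bl1, Irgm2 and Irgm1). The number called was 4 of 15 without C3, without L2 or without L3, and 7 without C1. Vmn2r84 passed that filter only through the control arrays, and a stricter filter removed it. Without the filter Vmn2r84 was not called (adjusted p = 0.078 with limma). Nor were Ifit1bl1, Irgm2 and Irgm1 (adjusted p = 0.065, 0.053 and 0.059 with limma).

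**Figure D3:**
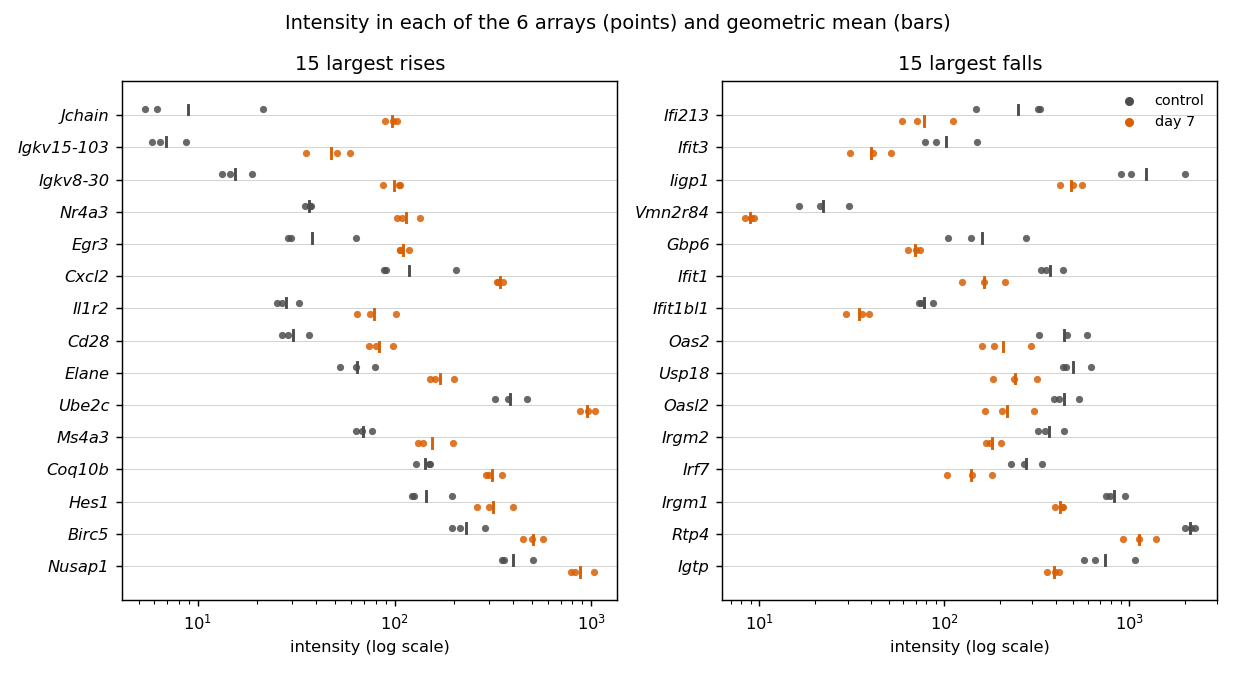
Points are the intensity in each of the 3 control arrays (grey) and the 3 day 7 arrays (orange), on a log scale, for the 15 genes with the largest rises (left) and the 15 with the largest falls (right) among called, named genes; bars are geometric means. The 30 genes were chosen with groups that do not overlap, and the controls of Jchain and Cxcl2 spread more than their day 7 arrays.

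Many genes of mitosis rose. Over 6 lists with 161 tested genes, 70 rose and 0 fell, while 91 missed the threshold; the median change was 0.546 against 0.0132 over all genes tested. The 70 make up 25% of all genes called higher, and 43.5% of the listed genes passed against 2.21% of all genes. In 110 of the 161 the day 7 arrays lay above all controls, beside 15.2% of all genes. The number that rose was 17 without C3, 17 without L2, 23 without L1, 27 without C1, 47 without L3 and 91 without C2.

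Among mitotic kinases and the chromosomal passenger complex, which corrects faulty attachments of chromosomes, 13 of 18 tested genes rose and 0 fell (median 0.791). Birc5, a subunit of that complex, stood at 214, 287 and 196 in control and 570, 498 and 448 at day 7 (2.19-fold, adjusted p = 0.0045). Its catalytic subunit Aurkb was at 130, 195 and 114 against 329, 282 and 254 (2.01-fold, adjusted p = 0.031). Plk1, a kinase that drives entry into mitosis, went from 88.3, 111 and 88.3 to 233, 186 and 161 (2.01-fold, adjusted p = 0.024), and Nek2, which splits the centrosomes, from 87 to 109 in control to 151 to 232 (2.00-fold, adjusted p = 0.013). In all 4 genes C2 was the brightest control and lay below every day 7 array. The count of 13 was 3 without C3, 4 without L2, 5 without C1 or L1 and 15 without C2.

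Of 25 tested genes of mitotic cyclins and the anaphase-promoting complex 8 rose, and the median was 0.145. The 8 were partners and regulators, and no core subunit of the complex (Anapc and Cdc16, Cdc23, Cdc26 and Cdc27) was called. Ube2c and Ube2s, the conjugating enzymes that work with the complex to mark mitotic proteins for destruction, rose 2.47-fold (adjusted p = 0.0041) and 1.48-fold (adjusted p = 0.0063). Ube2s was at 1300, 1370 and 1160 in control and 1790, 1930 and 1960 at day 7. Ccna2, the cyclin of S phase and early mitosis, was at 355 to 571 against 722 to 1010 (2.00-fold, adjusted p = 0.016). The phosphatases Cdc25c and Cdc25b, which activate cyclin-dependent kinases, rose 1.95-fold (adjusted p = 0.0056) and 1.87-fold (adjusted p = 0.015). Fbxo5, an inhibitor of the complex, rose 1.55-fold (adjusted p = 0.035). The count of 8 was 3 without C3, 4 without L2, and 5 without C1 or L1.

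Of the motors that build the spindle, 8 of 17 tested kinesins and partners rose (median 0.571). Kifc1, which slides microtubules towards their minus ends, was at 100, 135 and 110 in control and 288, 246 and 202 at day 7 (2.13-fold, adjusted p = 0.0056). Kif11, which pushes the spindle poles apart, was at 131 to 206 against 293 to 375 (2.05-fold, adjusted p = 0.012), and its other probe sets gave 0.96 and 0.91. Both were called with each of the 6 arrays left out. Kif18b rose 1.94-fold (adjusted p = 0.022) and Kif2c, a microtubule depolymerase of the centromere, 1.86-fold (adjusted p = 0.018). By symbol, 7 of all 33 tested Kif genes rose (Kif11, Kif18b, Kif20a, Kif23, Kif2c, Kif4 and Kifc1), all known motors of cell division, and the family had a median of 0.0941. The list's count was 2 without C1, L1 or L2, and 3 without C3.

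At the kinetochore, where chromosomes meet the spindle, 18 of 36 tested genes rose (median 0.606). In 29 of the 36 (80.6%) the day 7 arrays lay above all controls, against 15.2% of all genes. Cenpf was at 125, 180 and 153 against 364, 323 and 261 (2.08-fold, adjusted p = 0.013). Ska1, which holds on to shrinking microtubules, was at 64.3 to 83.6 against 129 to 169 (2.03-fold, adjusted p = 0.0075). Spc25 and Spc24, partners in the complex that binds microtubules, rose 1.94-fold (adjusted p = 0.020) and 1.86-fold (adjusted p = 0.019), although a second probe set of Spc25 gave 0.04. Cenpa, the histone that marks centromeres, was at 254 to 283 against 419 to 476 (1.62-fold, adjusted p = 0.0045) and was called under each of the 22 settings. The list's count fell to 4 without C3 or L2, 6 without L1, 8 without C1 and 10 without L3.

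Of 39 tested genes of spindle assembly and the centrosome 19 rose (median 0.557). Nusap1, which bundles microtubules, was at 361, 505 and 353 against 1030, 826 and 791 (2.19-fold, adjusted p = 0.0066). Hmmr, which links centrosomes to spindle assembly, was at 175 to 233 against 344 to 505 (2.14-fold, adjusted p = 0.022), and its other probe sets gave 0.88, 0.98 and 1.06. Prc1, which bundles the midzone of the spindle, rose 2.04-fold (adjusted p = 0.022). This count was 3 without C3 or L2, 5 without C1 or L1, and 11 without L3. Of 26 tested genes of condensin, cohesin and chromosome structure 4 rose, among them Cdca5, which keeps sister chromatids together (1.89-fold, adjusted p = 0.014), and Top2a, which untangles DNA (1.69-fold, adjusted p = 0.014). That count was 9 without C2, 2 without C1 or L3, 1 without C3, and 0 without L1 or L2. Second probe sets gave 0.92 for Cdca5 and 0.30 for Top2a.

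**Figure D4:**
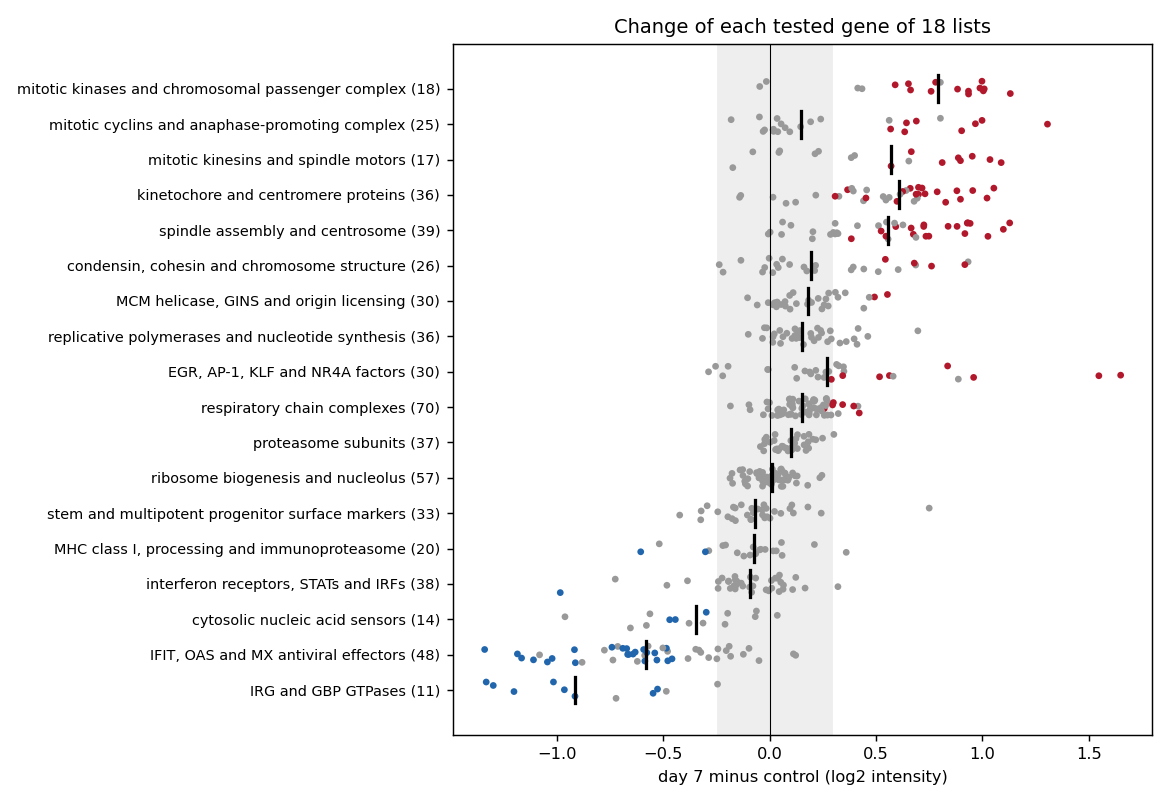
Each point is a tested gene of 1 of 18 lists, placed by its day 7 minus control difference in log2 intensity; red points were called higher, blue points lower and grey points neither, black bars are list medians and numbers in brackets are genes tested. The grey band holds the central 90% of all genes tested, from -0.244 to 0.295, and the mitosis lists extend to its right and the antiviral lists to its left.

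From RefSeq on build GRCm38.p6, 3 promoters are printed, each from 250 bases before to 50 bases after the start site. The larger mitosis rises Birc5 and Nusap1 are not among them. The 3 were chosen because they hold the letters TTTGAA, so they are examples and do not show what the risers share. These letters, searched on both strands, are the core of the CHR element known from late cell cycle promoters, and CCAAT, also searched on both, is the box bound by NF-Y. Capitals mark the matches of both, on either strand. Ube2c lies at chr2:164769679-164769978 on the plus strand, Hmmr at chr11:40733388-40733687 on the minus strand and Kifc1 at chr17:33890584-33890883 on the minus strand.
Ube2c: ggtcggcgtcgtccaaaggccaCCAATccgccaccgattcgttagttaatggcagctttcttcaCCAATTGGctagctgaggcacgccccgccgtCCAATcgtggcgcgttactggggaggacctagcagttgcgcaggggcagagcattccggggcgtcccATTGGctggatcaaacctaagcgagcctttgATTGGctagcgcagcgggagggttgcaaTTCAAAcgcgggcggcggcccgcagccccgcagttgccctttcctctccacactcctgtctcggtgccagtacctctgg
Hmmr: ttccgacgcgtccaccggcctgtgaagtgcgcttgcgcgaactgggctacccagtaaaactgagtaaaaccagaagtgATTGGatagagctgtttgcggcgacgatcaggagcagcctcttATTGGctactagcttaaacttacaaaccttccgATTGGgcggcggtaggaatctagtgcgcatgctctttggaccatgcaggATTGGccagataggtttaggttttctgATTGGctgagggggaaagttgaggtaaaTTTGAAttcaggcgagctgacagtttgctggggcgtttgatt
Kifc1: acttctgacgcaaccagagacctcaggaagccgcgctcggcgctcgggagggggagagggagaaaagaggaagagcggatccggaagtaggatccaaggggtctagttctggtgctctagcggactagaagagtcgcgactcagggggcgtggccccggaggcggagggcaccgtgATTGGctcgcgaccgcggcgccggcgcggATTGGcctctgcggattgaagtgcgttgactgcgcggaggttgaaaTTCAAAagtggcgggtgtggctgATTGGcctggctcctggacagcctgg
The CHR match began 29 bases before the start site in Ube2c, 8 bases past it in Hmmr and 1 base past it in Kifc1, and the promoters held 6, 5 and 3 CCAAT matches, where CCAATTGG counts as a match on each strand. Of the 70 mitosis genes that rose, 58 had a promoter in the table, and TTTGAA was found in 38 of them (65.5%) against 1449 of the 10252 promoters of all genes tested (14.1%). CCAAT was found in 75.9% against 42.4%. A gene with several start sites counted once if any held the letters. A match describes letters and is not a bound site, and the genes had been picked for their rise.

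Genes of DNA replication gave few calls, and the counts below stand beside 2.21% of all genes that rose. Of 30 tested genes of the MCM helicase and origin licensing 2 rose: Dbf4, which activates the origin kinase, from 300 to 354 in control to 431 to 491 at day 7 (1.41-fold, adjusted p = 0.015), and Ticrr, which loads the replication machinery, 1.47-fold (adjusted p = 0.020), with 0.08 and 0.31 in its other probe sets. That count was 4 without C2, 1 without C1, L1 or L2, and 0 without C3. None of 36 tested genes of replicative polymerases and nucleotide synthesis passed with limma, although 11 had an unadjusted p below 0.05. Without C2, 8 of the 36 were called higher, and with array weights 14 were. Tk1, thymidine kinase, was at 195, 288 and 158 in control and 332 to 338 at day 7 (1.62-fold, adjusted p = 0.069). The list medians were 0.18 and 0.15. H2ax, the histone variant of damaged and replicating chromatin, was at 473 to 622 against 926 to 1100 (1.87-fold, adjusted p = 0.0045) and was called under each of the 22 settings. Of 47 DNA damage and repair genes only Neil3, a glycosylase of dividing cells, rose (1.63-fold, adjusted p = 0.015), 0 did without C3, L1 or L2, and 3 did without C2. A second probe set of Neil3 gave 0.26.

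Other regulators of the cell cycle were called too. Cdkn2c, the CDK inhibitor p18, was at 171, 220 and 160 in control and 350, 316 and 295 at day 7 (1.76-fold, adjusted p = 0.0076). Cdkn3, a phosphatase that removes the activating mark of CDKs, was at 62.3 in all 3 controls and at 134, 122 and 101 at day 7 (1.90-fold, adjusted p = 0.0045). Foxm1 and Mybl2, transcription factors of late cell cycle genes, rose 1.40-fold (adjusted p = 0.016) and 1.34-fold (adjusted p = 0.022). In all, 5 of 26 tested genes of FOXO factors and quiescence regulators rose and 0 fell, beside 2.21% and 1.13% of all genes. The list had no common direction, with 15 above 0, 11 below and a median of 0.0284. In 6 of the 26 the day 7 arrays lay above all controls and in 4 below, beside 15.2% and 11.3% of all genes. The count of 5 was 1 without L1 and 2 without C1, C3, L2 or L3.

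Many genes of the interferon response fell. Over 4 lists with 111 tested genes, 35 fell and 0 rose, while 76 missed the threshold; the median was -0.348. The 35 make up 24.5% of all genes called lower, and 31.5% of the listed genes passed against 1.13% of all genes. The number that fell was 5 without L2 or L3, 7 without C3, 12 without C1, 25 without L1 and 40 without C2.

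The antiviral effectors carried most of these calls: 23 of 48 tested genes fell (median -0.583). In 37 of the 48 (77.1%) the day 7 arrays lay below all controls, against 11.3% of all genes. Ifit3 belongs to a family that recognises foreign RNA ends. It was at 151, 78.3 and 89.7 in control and 51.3, 30.9 and 41.3 at day 7, a fall by 1.34 on the log2 scale (SE 0.27, adjusted p = 0.028). Oas2, which makes the signal that starts RNA decay, was at 464, 325 and 591 against 296, 161 and 186 (2.16-fold lower, adjusted p = 0.049). Usp18, the protease that strips ISG15 and damps the receptor, was at 438 to 619 against 184 to 318 (2.06-fold lower, adjusted p = 0.040). Rtp4 was among the brightest, at 2010 to 2270 in control and 923 to 1400 at day 7 (1.89-fold lower, adjusted p = 0.022). In Ifit3, Oas2, Usp18 and Rtp4, L1 was the highest of its group, and the groups did not overlap. The count of 23 was 3 without L2 or L3, 5 without C1 or C3, and 27 without C2.

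GTPases of the IRG and GBP families, which attack the vacuoles of parasites and bacteria, fell in 8 of 11 tested genes (median -0.916). In all 11 the day 7 arrays lay below every control, beside 11.3% of all genes. Iigp1 was at 2000, 905 and 1030 in control and 554, 422 and 496 at day 7 (2.52-fold lower, adjusted p = 0.022). Gbp6 was at 276, 105 and 139 against 63.3 to 73.9 (2.30-fold lower, adjusted p = 0.045). In both, C1 stood far above the other controls. Irgm1 and Irgm2, regulators of the family, spread less: Irgm1 was at 955, 787 and 748 against 396 to 439 (1.95-fold lower, adjusted p = 0.0056), and Irgm2 at 320 to 446 against 168 to 204 (2.02-fold lower, adjusted p = 0.0045). Iigp1 and Gbp6 lost their call in 4 of the 6 fits that left out an array, Irgm1 and Irgm2 in 0. The count of 8 was 2 without C3 or L1, L2 or L3.

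Sensors, receptors and signalling factors gave fewer calls, and the counts below stand beside 1.13% of all genes that fell. Of 14 tested sensors of nucleic acids 3 fell: Ddx58, the RNA sensor RIG-I, from 403 to 412 in control to 274 to 332 at day 7 (1.39-fold lower, adjusted p = 0.015), Adar, an RNA-editing enzyme (1.36-fold, adjusted p = 0.026), and Samhd1, which breaks down nucleotides (1.23-fold, adjusted p = 0.044). This count was 0 without C3, L2 or L3, 1 without C1 and 2 without L1. Of 38 interferon receptors, STATs and IRFs only Irf7, the amplifier of the type I response, fell; it was at 340, 230 and 269 against 182, 104 and 142 (1.98-fold lower, adjusted p = 0.041). Of 20 MHC class I and processing genes 2 fell: Nlrc5, the activator of class I genes (1.52-fold, adjusted p = 0.015), and Cd274, the checkpoint ligand PD-L1 (1.23-fold, adjusted p = 0.045). Of 16 MHC class II and costimulatory genes only Cd86 fell (1.30-fold, adjusted p = 0.046). Irf7 was not called without C1, C3, L2 or L3; the 2 class I genes were 0 without C3, L2 or L3, 1 without C1 or L1 and 4 without C2; and Cd86 was called in 0 of the 6 fits that each left out an array. The 6 Trim genes that fell among 46 tested included Trim34a (1.58-fold lower, adjusted p = 0.0045; second probe set -0.20), Trim12c (1.59-fold, adjusted p = 0.014; second probe set -0.17) and Trim30a (1.45-fold, adjusted p = 0.020); 1 did without L2, 2 without C3 or L3 and 3 without C1.

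The promoters of 3 of the largest falls are printed from the same RefSeq table because they hold the core of the interferon-stimulated response element, searched as GAAANNGAA on both strands. Capitals mark each match, on either strand. All 3 lie on chromosome 19, Ifit3 at chr19:34583279-34583578 and Ifit1 at chr19:34640639-34640938 on the plus strand and Ifit1bl1 at chr19:34601919-34602218 on the minus strand.
Ifit3: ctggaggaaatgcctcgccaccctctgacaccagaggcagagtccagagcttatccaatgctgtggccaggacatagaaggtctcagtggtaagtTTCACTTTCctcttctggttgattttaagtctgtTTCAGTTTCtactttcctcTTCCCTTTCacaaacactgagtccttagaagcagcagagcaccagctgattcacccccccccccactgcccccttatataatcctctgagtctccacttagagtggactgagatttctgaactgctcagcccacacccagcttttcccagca
Ifit1: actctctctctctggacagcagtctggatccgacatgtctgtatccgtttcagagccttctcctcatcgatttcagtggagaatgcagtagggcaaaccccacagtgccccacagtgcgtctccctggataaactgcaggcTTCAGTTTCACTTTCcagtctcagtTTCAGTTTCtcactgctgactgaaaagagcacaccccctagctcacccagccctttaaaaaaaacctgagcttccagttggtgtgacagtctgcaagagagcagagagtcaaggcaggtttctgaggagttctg
Ifit1bl1: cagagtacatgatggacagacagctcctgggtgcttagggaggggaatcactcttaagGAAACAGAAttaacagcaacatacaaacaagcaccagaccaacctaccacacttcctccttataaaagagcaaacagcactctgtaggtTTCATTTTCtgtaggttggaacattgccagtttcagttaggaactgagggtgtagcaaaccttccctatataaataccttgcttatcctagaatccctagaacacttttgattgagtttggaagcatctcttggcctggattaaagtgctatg
Ifit3 and Ifit1 held 3 matches each, which in Ifit1 include an overlapping pair, and Ifit1bl1 held 2. The match nearest the start site began 102, 84 and 103 bases before it. Of the 35 interferon genes that fell, 27 had a promoter in the table, and 15 of these (55.6%) held GAAANNGAA against 8.37% of the promoters of all genes tested. Among the 58 mitosis genes that rose and had a promoter, 3.45% held it. In the other direction, TTTGAA was found in 37.0% of the 27 interferon promoters, and 0 of these matches overlapped a GAAANNGAA match.

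Of 30 tested EGR, AP-1, KLF and NR4A factors 8 rose, 0 fell and 22 missed the threshold (median 0.271), beside 2.21% of all genes that rose. Nr4a3, an orphan nuclear receptor, was at 37.2, 34.9 and 37.6 in control and 109, 103 and 134 at day 7 (3.14-fold, adjusted p = 0.0010), but its dimmer second probe set gave 0.23. Egr3 was at 63.3, 29.8 and 28.7 against 107, 107 and 118 (2.92-fold, adjusted p = 0.020), with C1 above its group. A dimmer second probe set of Egr3 gave 0.09. Maff, a small partner of AP-1 factors, was at 128 to 167 against 259 to 288 (1.94-fold, adjusted p = 0.0045). Fosl2, an AP-1 subunit, was at 292, 305 and 311 against 468, 471 and 717 (1.79-fold, adjusted p = 0.016). Nr4a3 and Maff were called with each of the 6 arrays left out. Their means at day 14, with the same controls, were 408 for Nr4a3, 626 for Egr3, 788 for Maff and 1170 for Fosl2. The count of 8 was 2 without C3, 3 without L1 or L3, 4 without L2 and 5 without C2.

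On the list of genes that answer cyclic AMP and CREB 4 of 24 tested rose, beside 2.21% of all genes. The list as a whole had no common direction, with 13 above 0, 11 below and a median of 0.00758. Beside Coq10b these were Crem, a CREB-family factor, from 45.5 to 47.4 in control to 57.6, 76.2 and 106 at day 7 (1.66-fold, adjusted p = 0.048), Pde4b, which breaks down cyclic AMP (1.55-fold, adjusted p = 0.013), and Csrnp1 (1.36-fold, adjusted p = 0.038). A probe set of Pde4b that was not used gave -0.69. The count was 1 without C3, 2 without C1, C2, L2 or L3, and 3 without L1. Dusp10, a phosphatase of stress kinases, rose from 41.9 to 53.1 to 79.7 to 88.4 (1.75-fold, adjusted p = 0.0088).

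Among NF-kB genes 2 of 24 rose, where 2.21% of all genes did. Rel, a subunit of the factor active in lymphocytes, was at 119, 85.5 and 104 in control and 217, 177 and 211 at day 7 (1.97-fold, adjusted p = 0.0073). Cd83, a surface protein of activated cells, was dim at 13.5 to 18.7 against 25 to 42.7 (1.94-fold, adjusted p = 0.031). Without C3, L2 or L3 the count was 1, and it was 3 without C1. Of 64 cytokine genes and receptors 4 rose, Cxcl2, Il1r2, Cxcl9 and Tnf, and 2 fell, Ccr7 and Csf2rb, beside 2.21% and 1.13% of all genes. Tnf was at 70.4 to 83.4 against 97.8, 134 and 127 (1.53-fold, adjusted p = 0.034), and Csf2rb, the common chain of the interleukin-3 and GM-CSF receptors, at 464 to 542 against 390 to 418 (1.26-fold lower, adjusted p = 0.043). The 4 were 1 without C3, L2 or L3 and 2 without C1, and the 2 were 0 without C3 or L1, L2 or L3 and 1 without C1.

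A few targets of NOTCH signalling rose. Of 42 tested NOTCH and WNT genes 3 rose, beside 2.21% of all genes, and all 3 are known NOTCH targets. Hey1 was at 31.9, 29.5 and 28.5 in control and 70.4, 59.4 and 61.3 at day 7 (2.12-fold, adjusted p = 0.0045) and was called under each of the 22 settings. Hes1 was at 195, 126 and 122 against 262, 300 and 400 (2.19-fold, adjusted p = 0.022), with C1 the highest control. Nrarp, a feedback inhibitor of NOTCH, rose 1.29-fold (adjusted p = 0.044). The list median was -0.0146, and the count was 1 without C3, L2 or L3 and 2 without C1 or L1. Id3, an inhibitor of E proteins that BMP signals can induce, was at 69.1, 38.4 and 36.6 against 94.0, 74.9 and 114 (2.02-fold, adjusted p = 0.045).

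Of 31 tested TGF-beta, BMP and SMAD genes 4 rose, beside 2.21% of all genes, while 14 lay above 0 and 17 below (median -0.00801). The 4 were Skil, a repressor of SMAD factors, from 548 to 740 in control to 868 to 1070 at day 7 (1.49-fold, adjusted p = 0.026), Ldlrad4 (1.44-fold, adjusted p = 0.026), Tgif2 (1.37-fold, adjusted p = 0.044) and the decoy receptor Bambi (1.32-fold, adjusted p = 0.045). The count was 0 without C3 or L1, L2 or L3 and 2 without C1 or C2. Of genes that answer glucocorticoids 3 of 19 rose, beside 2.21% of all genes: Il1r2, the zinc finger factor Zbtb16 (1.47-fold, adjusted p = 0.020) and Klf9, which had 6 further probe sets with changes from 0.37 to 0.67 (1.43-fold, adjusted p = 0.020). There the count was 1 without C3, L1 or L3, 2 without L2 and 5 without C1. Bhlhe40, a clock and hypoxia gene, was at 82.8 to 123 against 165 to 203 (2.00-fold, adjusted p = 0.016), and Vegfa rose 1.65-fold (adjusted p = 0.047).

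Antibody gene segments and their partner rose from levels near the background. Igkv8-30 was at 13.2, 18.8 and 14.6 in control and 105, 87.5 and 107 at day 7 (6.48-fold, adjusted p = 0.0010) and was called under each of the 22 settings. Igkv15-103 was below the signal threshold in all 3 controls and at 35.4, 51.2 and 59.4 at day 7, which makes it at least 3.31-fold higher. A probe set annotated to the kappa locus as Igk went from 12 to 13.5, below the threshold, to 19.4 to 28.1, at least 1.63-fold higher. These 3 were the called genes among 9 tested of the Igk and Igh families, beside 2.21% of all genes that rose. Igkv15-103 and Igk passed the filter on dim genes only through arrays outside the control group. The count was 3 with each of the 6 arrays left out, under that same filter. It was 1 with the filter at the 60th percentile and 1 without the filter. Kappa segments are alike in sequence, so which segment each probe set read is uncertain. Of 22 measured plasma cell genes 17 gave signal, and the summed intensity of the 22 was 5773 to 6487 in control and 6575 to 6988 at day 7, while the defining plasma cell genes Prdm1, Tnfrsf17, Slamf7 and Pou2af1 were below the threshold in all 6 arrays. What part mature cells have in these rises was not tested.

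A few early lymphoid genes rose. Vpreb1 and Igll1, which form the surrogate light chain of pre-B cells, rose 2.13-fold and 1.83-fold, both with adjusted p = 0.020. Vpreb1 was at 38.9 to 54.7 in control and at 74.5 to 109 at day 7. Ly6d, a marker of the first B-committed progenitors, was at 22.6 to 28.9 against 40.9 to 61.1 (2.12-fold, adjusted p = 0.0073). These were 3 of 26 tested genes of the early B lineage (median 0.0529), beside 2.21% of all genes that rose. The other 23 missed the threshold. Of the 3, 1 was called without L2 or L3 and 2 without C1 or C3. The summed intensity of the list's 31 measured genes was 14141 to 16607 in control and 13266 to 15745 at day 7. Of the 31, 22 were above the threshold in at least 3 of the 6 arrays. Another 7, among them Ebf1 and Ms4a1, were above it in none. Of 25 tested T and NK cell genes 3 rose, Cd28, Bcl11b, a factor of T cell commitment (higher by 0.85 on the log2 scale, adjusted p = 0.012), and the gamma chain segment Trgv4 (2.00-fold, adjusted p = 0.018). That count stands beside 2.21% of all genes that rose, and it was 5 without C2 and 2 without C3 or L1, L2 or L3. The list's 37 measured genes summed to 2718 to 3368 in control and 2937 to 3399 at day 7. Of the 37, 23 were above the threshold in at least 3 of the 6 arrays. Another 11, among them Cd3d, Cd3g, Cd2 and Cd8b1, were above it in none.

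A pair of granulocyte progenitor genes rose. Elane, neutrophil elastase, was at 79.8, 52.7 and 63.3 in control and 200, 152 and 160 at day 7 (2.64-fold, adjusted p = 0.015). Ms4a3, a marker of granulocyte and monocyte progenitors, was at 63.7 to 76.6 against 132 to 199 (2.23-fold, adjusted p = 0.012). They were 2 of 25 tested neutrophil genes (median 0.103), beside 2.21% of all genes that rose, and 0 without C3 and 1 without L1. The 34 measured genes of the list summed to 14697 to 16020 in control and 15686 to 17258 at day 7. Of the 34, 24 were above the threshold in at least 3 of the 6 arrays. Another 8, among them the late granule genes Lcn2, Mmp8 and Chil3, were above it in none. Mcpt8, a basophil protease, was at 93.4 to 114 against 180 to 251 (2.00-fold, adjusted p = 0.0059). Of 17 measured mast cell and basophil genes, 10 were above the threshold in at least 3 of the 6 arrays. Another 6, among them Fcer1a and the mast cell proteases Mcpt1, Mcpt2 and Mcpt4, were above it in none. Of 10 tested mast cell and basophil genes 1 rose, Mcpt8, and 1 fell, beside 2.21% and 1.13% of all genes. The list had 6 genes above 0 and 4 below. Of 25 tested monocyte genes 0 were called by limma and 4 had an unadjusted p below 0.05, and without C2 3 were called higher. F13a1 was at 191, 103 and 260 in control and 511, 244 and 476 at day 7, with overlapping groups (adjusted p = 0.13). Of 23 tested erythroid genes 0 were called and 2 had an unadjusted p below 0.05, 1 was called higher without C1, and the 33 measured summed to 6581 to 8341 in control and 6894 to 7242 at day 7.

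Genes of the mitochondrial respiratory chain lay slightly higher at day 7, almost throughout. Of 70 tested genes 6 rose and 0 fell, beside 2.21% and 1.13% of all genes. Their median was 0.153, 63 of the 70 were above 0, and in 48 the 3 day 7 arrays lay above the 3 controls, 68.6% against 15.2% of all genes. Uqcrq, a subunit of complex III, was at 684, 703 and 611 in control and 874, 890 and 906 at day 7 (1.34-fold, adjusted p = 0.013), with 0.37 and -0.19 in its other probe sets. Uqcr11 rose 1.31-fold (adjusted p = 0.033), Atp5l, of the ATP synthase, 1.27-fold (adjusted p = 0.037) and Uqcrfs1, the iron-sulfur protein of complex III, 1.23-fold (adjusted p = 0.046). The median of the 70 stayed between 0.114 and 0.183 with single arrays left out and was 0.142 after quantile normalization. The number called was 0 without L2 and 1 without C1, C3, L1 or L3.

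Genes of mitochondrial ribosomal proteins had a median of 0.155 over 76 tested Mrpl and Mrps genes, of which 68 were above 0. Of the 76, 41 (53.9%) had day 7 above all controls, against 15.2% of all genes. Mrps11 was the only one called, from 174 to 193 in control to 218 to 256 at day 7 (1.26-fold, adjusted p = 0.042), and its second probe set gave -0.31. The count was 0 with C1, C3, L1, L2 or L3 left out, 3 without C2, and 0 under the replicate block, with only the 6 arrays or on a common 75th percentile. For ribosomal proteins of the cytosol the median of 52 Rpl and Rps genes was 0.0078, with 0 called by limma, 5 with an unadjusted p below 0.05, and 30 above 0. Proteasome subunits lay between, with a median of 0.0994 over 37 genes, 32 above 0, 0 called and 10 with an unadjusted p below 0.05. Without C3 the medians were 0.0952 for the mitochondrial ribosome and 0.0486 for the proteasome, and with the mean of probe sets the proteasome had a median of 0.0499 with 25 of 37 above 0. At day 14, against the same controls, the medians were -0.336 for the respiratory chain, -0.479 for the mitochondrial ribosome and -0.358 for the proteasome. Short genes as a class were slightly higher at day 7: the median change was 0.0476 in the quartile of genes with the shortest span on the chromosome (median span 4.68 kb) and -0.00595 in the quartile with the longest (96.3 kb), and the spans of the respiratory chain and mitochondrial ribosome genes had medians of 7.21 and 7.69 kb. What part gene span has in these medians was not tested.

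**Figure D5:**
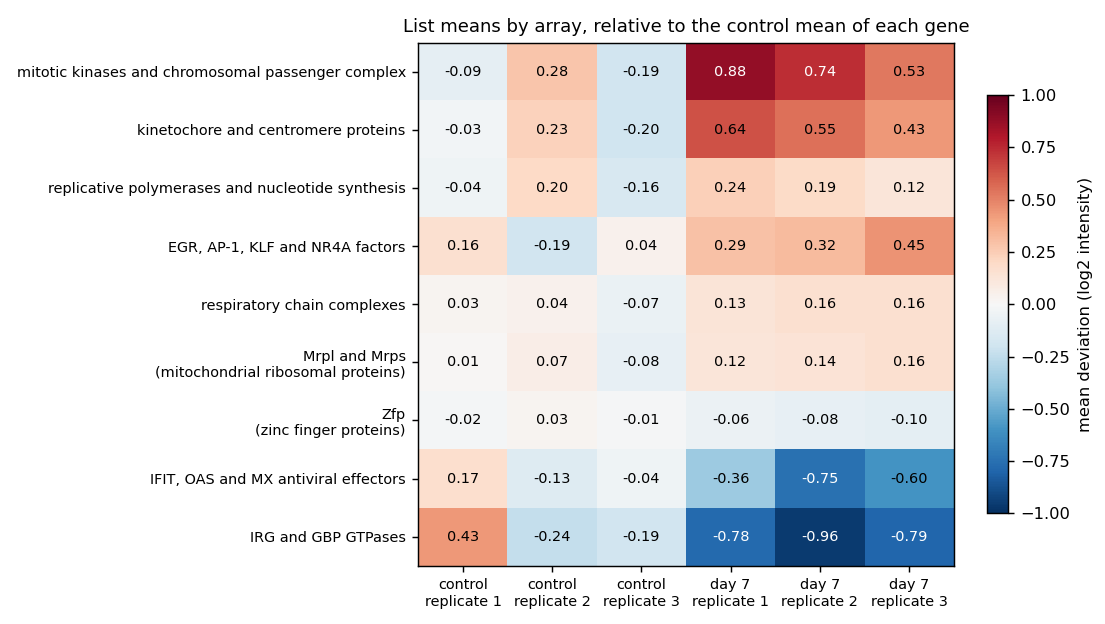
Each cell gives, for 1 list (rows) and 1 array (columns), the mean over its tested genes of the log2 intensity minus that gene's control mean; red is higher and blue lower. All 3 day 7 arrays exceed all 3 controls in the mitotic kinases (0.53 to 0.88 against -0.19 to 0.28) and fall below them in the IRG and GBP GTPases (-0.96 to -0.78 against -0.24 to 0.43), whereas in the replicative polymerases C2 (0.20) lies above 2 of the 3 day 7 arrays.

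Zinc finger genes lay slightly lower. Of 302 tested Zfp genes, most of which encode DNA-binding repressors, 6 fell and 2 rose, beside 1.13% and 2.21% of all genes. However, 209 were below 0 with a median of -0.079, and 85 (28.1%) had day 7 below all controls against 11.3% of all genes. Zfp950 was at 134, 146 and 194 in control and 81.9 to 93.6 at day 7 (1.79-fold lower, adjusted p = 0.015), although another probe set gave -0.21. Zfp932 and Zfp760 fell 1.28-fold (adjusted p = 0.029) and 1.27-fold (adjusted p = 0.025). The 6 were 0 without L1 or L3, 1 without C3 or L2 and 4 without C1. The median stayed between -0.0918 and -0.0622 with single arrays left out.

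A few abundant nuclear RNAs or genes of RNA-binding proteins were among the falls, chosen singly and not as a list. Malat1, a long RNA that stays in the nucleus, was at 4990, 5310 and 4900 in control and 3950, 4170 and 3480 at day 7 (1.31-fold lower, adjusted p = 0.044), a call lost with each of the 6 arrays left out in turn; of its 6 other probe sets 5 gave falls from -0.44 to -0.69 and 1 gave 0.60. Ddx17, an RNA helicase of splicing, was at 3130 to 3360 against 2330 to 2520 (1.36-fold lower, adjusted p = 0.0077), but its other probe sets gave 0.59 and -0.36. Rsrp1, an arginine and serine rich protein, was at 946 to 1190 against 580 to 721 (1.64-fold lower, adjusted p = 0.013) and Fubp1, which binds single-stranded DNA and RNA, at 239 to 307 against 141 to 175 (1.66-fold lower, adjusted p = 0.015), while its other probe sets gave -0.03, -0.44 and -0.69. Of 54 tested genes on the list of SR and hnRNP splicing factors, which holds Malat1, Malat1 alone was called, beside 1.13% of all genes that fell. The list median was -0.0405.

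Stress and nutrient genes rose in part. Of 37 tested genes of the integrated stress and unfolded protein responses 4 rose and 0 fell (median 0.0956), beside 2.21% and 1.13% of all genes. Atf4, the factor at the centre of the first, was at 1930, 1890 and 1950 in control and 2390, 2490 and 2660 at day 7 (1.30-fold, adjusted p = 0.013). Its targets Ddit3 and Slc3a2 rose 1.71-fold (adjusted p = 0.012) and 1.23-fold (adjusted p = 0.026), and Mthfd2, of mitochondrial folate metabolism, 1.40-fold (adjusted p = 0.040). Other probe sets of Atf4 and Ddit3 gave 0.02 and -0.01. The count was 1 without C3, L2 or L3 and 2 without C1 or L1. Msmo1, of cholesterol synthesis, was at 275 in all 3 controls and 169 to 223 at day 7 (1.38-fold lower, adjusted p = 0.045; 0.19 in its other probe set), a call lost with each of the 6 arrays left out in turn.

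Of 66 lists, 20 held no called gene. Among 33 tested surface markers of stem and multipotent progenitor cells Thy1 (27.7 to 36.3 against 43.5 to 61.3, adjusted p = 0.051) and Fgd5 (177 to 195 against 136 to 153, adjusted p = 0.069) had the smallest p. Mycn, of the MYC network, was at 359 to 463 against 222 to 303 (adjusted p = 0.051). Meis1 and Hoxb4 had adjusted p of 0.070 and 0.077, with values of 582 to 627 against 476 to 531 and of 104 to 126 against 86.1 to 95.1. Other probe sets of Meis1 gave larger falls, -1.11 and -0.55. Without C2, 6 genes of nuclear pores and transport receptors were called higher. Polycomb genes, DNA methylation enzymes, adhesion receptors, glycolysis, ribosome biogenesis and aminoacyl-tRNA synthetases were without calls as well. With 3 arrays a group, a p above the threshold does not show that such genes were equal.

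Among called genes, 241 were in no list, 145 of them higher and 96 lower, and those with the smallest p include further genes of cell division. Pimreg, a regulator of mitosis, was at 63.5, 79.2 and 61.7 in control and 153, 143 and 146 at day 7 (2.18-fold, adjusted p = 0.0034). Cdca3, a trigger of mitotic entry, was at 173 to 233 against 362 to 415 (1.95-fold, adjusted p = 0.0056), and Fam72a at 30.8 to 47.4 against 74.1 to 86.9 (2.02-fold, adjusted p = 0.0066). Arhgap19, a regulator of cytokinesis, rose 1.93-fold (adjusted p = 0.0059). In all 4 the groups did not overlap, and each was called with every 1 of the 6 arrays left out.

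Others in that set have roles outside the cell cycle. Trp53inp2, a scaffold of autophagy, was at 31.8, 27.0 and 27.7 in control and 48.8, 49.0 and 49.4 at day 7 (1.71-fold, adjusted p = 0.0015) and was called under each of the 22 settings, while its other probe set gave 0.12. Rasgef1b, an exchange factor of Ras proteins, was at 51.8 to 66.0 against 97.0 to 129 (1.83-fold, adjusted p = 0.0070). Snhg16, a host gene of small nucleolar RNAs, was at 355 to 410 against 555 to 606 (1.52-fold, adjusted p = 0.0051), with -0.33 in another probe set. Mtf1, the sensor of heavy metals, rose 1.46-fold (adjusted p = 0.0056), but its 4 other probe sets lay between -0.23 and 0.11. Among those lower, Rhobtb1 was at 81.3 to 89.5 against 57.0 to 64.2 (1.42-fold lower, adjusted p = 0.0077) and Rsl1, a zinc finger repressor of sex-biased liver genes, at 99.4 to 112 against 74.9 to 81.1 (1.36-fold lower, adjusted p = 0.011); both were called under each of the 22 settings. Rnf180, a ubiquitin ligase, fell 1.32-fold (adjusted p = 0.0091), with 0.05 in its other probe set.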

How the data were processed

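Total RNA from the sorted cells was amplified over repeated cycles and hybridized to Affymetrix Mouse Genome 430 2.0 arrays, with 3 arrays each for control, day 7 and day 14, per the labels and the series' design text. The deposited values are intensities on a linear scale, 1 per probe set, that the authors normalized with Affymetrix software, per the series' design text; many values are exactly equal between arrays, and how that arose is not given in the sources used here. The platform table gave 34945 of 45037 probe sets 1 gene symbol, 932 several and 9160 none. The brightest probe set on average stood for each of 18193 genes, and 9010 genes had more than 1. Intensities below 5.812, the 20th percentile of all values, were set to it. Genes above an array's 40th percentile (14.11 to 15.15, the signal threshold in the text) in at least 3 arrays were kept, which removed 5541.

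Log2 intensities of all 9 arrays were fitted with limma 3.58.1 in R 4.3.3, with group as the only term, and day 7 was set against control. P-values were adjusted by Benjamini-Hochberg over the 12652 genes, and an adjusted p below 0.05 was a call. Adjusted p-values in the text are from this fit. A bound for a gene below the threshold in a whole group compares the other group's mean with the higher of the gene's own signal and the threshold, as means of log2 values. The fit was tested on simulated data. Whether replicate numbers pair the samples is not stated. Across genes, the correlations of same-numbered control and day 7 deviations were -0.0485, 0.12 and 0.00226, which cannot settle whether a sort was shared. Summaries and figures used Python 3.11.15, pandas 2.3.3 and matplotlib 3.10.9.

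Genes were named by rule. The first were the 15 largest rises and 15 largest falls among called genes whose control and day 7 arrays did not overlap. The others were the largest calls or smallest p of each list, and the called genes in no list with the smallest p. A few genes outside these, such as Aurka and Samd9l, were chosen after their values were seen. Members and lists were chosen with earlier results of these data known. Promoters came from RefSeq; Hmmr and Kifc1 were printed, after values were seen, in place of Jchain and Elane, the larger rises, because they belong to the mitosis lists and hold the letters shown. The alternatives were other filters, floors, scalings, probe set rules, prior and weights, the replicate block, only the 6 arrays, and each array left out. The quartiles of gene span were added after seeing the data.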

Additional observations from a re-analysis of the deposited data

Results flagged for a closer look

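Of the 15 largest rises and 15 largest falls at day 7, 18 differed between day 14 and day 7 by limma with Benjamini-Hochberg adjustment. Both time points were set against the same controls, so the values below are the direct day 14 minus day 7 differences on the log2 scale. Among the rises, 7 were higher still at day 14: Egr3 by 2.46, Nr4a3 by 1.81, Il1r2 by 1.59, Hes1 by 1.46, Coq10b by 1.06, Cd28 by 0.93 and Cxcl2 by 0.75. The other 5 rises stood lower at day 14 than at day 7: Ube2c by -2.15, Birc5 by -1.85, Nusap1 by -1.76, Igkv15-103 by -1.52 and Igkv8-30 by -1.06. Of these, Ube2c, Birc5 and Nusap1 were below control at day 14, with changes of -0.84, -0.72 and -0.63, whereas Igkv8-30 was above it by 1.64. Igkv15-103 was below the signal threshold in all 3 controls and in 1 of the 3 day 14 arrays, so its difference depends on how low values are handled. Among the falls, 6 stood lower still at day 14: Ifit1 by -1.15, Irgm2 by -0.86, Ifit1bl1 by -0.85, Usp18 by -0.80, Rtp4 by -0.79 and Ifit3 by -0.77. In 0 of the falls was day 14 above day 7 past the threshold.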

How the results depend on the processing

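The 15 largest rises and 15 largest falls kept their direction under each of the 21 alternatives that tested them, and 107 of their values there missed the threshold. These genes were chosen with groups that did not overlap, so leaving out an array could not have reversed them. The filter at the 60th percentile removed Igkv15-103 and Vmn2r84. The counts below are genes called, higher, lower and changed 2-fold or more, which were 423, 280, 143 and 44 as reported. They were 2181, 1352, 829 and 68 with array weights, 703, 459, 244 and 15 with an offset of 32 in place of the floor, and 59, 40, 19 and 8 without the filter on dim genes. With a trended robust prior 674, 432 and 242 were called, higher and lower. With the replicate block 280 were called, 186 higher and 94 lower, and 95 were lower with only the 6 arrays. With each of the 9 arrays left out in turn, the counts ranged from 79 to 555, 60 to 378, 17 to 177 and 22 to 69. The share of calls that were higher was 66.2% as reported, 65.9% after quantile normalization, 60.8% on a common 75th percentile, 75.9% when C3 was dropped, 79.8% when L2 was and 86.1% when L3 was. Whether replicate numbers pair the samples is not stated, so the block is given as an alternative. The cause of these differences was not tested. Of the 162 named called genes, 139 lost their call without the filter, 52 with only the 6 arrays, 38 under the replicate block, 34 with the mean of probe sets, 17 on the common percentile, 11 after quantile normalization and 3 or fewer under the prior, the weights or the offset.

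With 3 arrays a group and a signal threshold near 15 at the most, changes of dim genes are bounds or uncertain, and the second probe sets of Nr4a3, Egr3, Spc25, Mtf1, Trp53inp2 and Rnf180 gave little change. Controls carry no time label, and separate animals are not stated.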
